A study of Mus musculus with 6 samples.

Results

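Of the 49568 gene names measured in each sample, 9 genes were chosen by name for their known roles: the 2 subunit genes of the metabotropic GABA-B receptor, Gabbr1 and Gabbr2, the 3 genes of its auxiliary KCTD subunits, Kctd8, Kctd12 and Kctd16, and the 4 genes of G protein-gated inwardly rectifying potassium (GIRK) channels, Kcnj3, Kcnj5, Kcnj6 and Kcnj9. Their RNA was measured in neurons of the preBötzinger complex (preBötC), the region of the medulla that generates the rhythm of inspiration, in 3 samples of Dbx1 neurons and 3 samples of non-Dbx1 neurons, each of 15 neurons. All 6 mice were neonates at postnatal day 2 and carried both Dbx1CreERT2, a tamoxifen-inducible Cre recombinase under control of the Dbx1 gene, and the Cre reporter Rosa26tdTomato, after tamoxifen had been given to the pregnant dams. Dbx1 neurons were the tdTomato-fluorescent cells, descended from embryonic precursors that expressed the transcription factor Dbx1, and non-Dbx1 neurons were cells without fluorescence in the same region. The non-Dbx1 group is therefore defined by the absence of a label and is not a single cell type, and cells in which the inducible Cre did not act would also be counted in it.

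GABA-B receptors answer GABA through G proteins of the Gi/o class and not through a pore of their own. The product of Gabbr1 binds GABA, the product of Gabbr2 couples to the G protein, and both are needed for a working receptor at the cell surface. The G protein beta and gamma subunits that are released open GIRK channels, which let potassium out and hold the neuron away from its firing threshold, and KCTD proteins bind the receptor and the G protein and shape the onset and the desensitization of this current.

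The libraries held 6464675 to 9432958 reads on genes. The main test was limma, fitted to log2(RPKM + 1) across the 17614 genes above 0 RPKM in at least 3 samples. RPKM is the number of reads on a gene divided by its exon length and by the reads on all genes. L2FC is the mean of log2(RPKM + 1) in Dbx1 samples minus that in non-Dbx1 samples, and FDR is limma's Benjamini-Hochberg adjusted p value, with a threshold of 0.1. Dbx1 itself was at 0 RPKM in all 6 samples and tdTomato was not measured here, so neither gene checks the labels. All 6 neuronal marker genes were above 0 in all 6 samples, with summed levels of 994 to 1708 RPKM in Dbx1 samples and 993 to 1380 RPKM in non-Dbx1 samples. Of the 6 libraries, 3 stood apart from the rest by markers of other cells, all of them non-Dbx1. Non-Dbx1 sample 1 held 14058 RPKM summed over 5 erythroid (globin and related) genes against 90.3 to 1198 RPKM in the others, and 385 RPKM over 6 oligodendrocyte lineage genes against 16.2 to 68.3 RPKM. Non-Dbx1 sample 2 held 661 RPKM over 4 catecholaminergic genes against 1.65 to 19.0 RPKM, and 69.3 RPKM over 4 endothelial genes against 0.0287 to 3.01 RPKM. Non-Dbx1 sample 3 held 62.3 RPKM over 5 cholinergic and motor neuron genes against 1.34 to 20.4 RPKM. Slc18a3, at 37.04 RPKM, made up most of that sum. Isl1 was at 13.3 RPKM there and at 0 in the other 5 samples, and Slc18a3 and Chat were also highest there. Slc5a7 was not, at 7.91 RPKM there against 10.9 RPKM in non-Dbx1 sample 2 and 8.52 RPKM in Dbx1 sample 3. Mnx1 was at 0 RPKM there and above 0 in non-Dbx1 sample 1 alone, at 0.145 RPKM. Of the catecholaminergic genes, Dbh, the enzyme that makes noradrenaline, was at 0 RPKM in all 3 Dbx1 samples and in non-Dbx1 sample 3. Slc18a2 was above 0 in all 6 samples, at up to 9.41 RPKM in Dbx1 samples, and Th was at 2.70 RPKM in Dbx1 sample 3. Of the erythroid genes, 4 of 5 were higher in every non-Dbx1 sample than in every Dbx1 sample, while the 6 microglial genes summed to at most 13.3 RPKM in any sample. The 6 astrocyte genes summed to 217 to 258 RPKM in Dbx1 samples and 232 to 270 RPKM in non-Dbx1 samples. Aldoc made up most of these sums, at 199 to 239 RPKM, so they say little of the other astrocyte genes. Among those, Slc1a3 was higher in every non-Dbx1 sample than in every Dbx1 sample (means 8.29 and 4.42 RPKM). Gfap was higher in every Dbx1 sample (means 1.69 and 0.0494 RPKM), and the rest overlapped.

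Both receptor subunit genes were expressed in all 6 samples and were among the more abundant tested genes, the 3 KCTD genes were lower and uneven between samples, and the GIRK genes were low, with Kcnj5 at 0 throughout. None of the 8 genes that could be tested was shown to differ between Dbx1 and non-Dbx1 neurons beyond the spread between samples. The 8 members other than Kcnj5 passed the filter on low values, and 0 of these 8 had an FDR under 0.1, beside 0% of all tested genes called higher in Dbx1 neurons and 0.00568% called higher in non-Dbx1 neurons. No member had an unadjusted p under 0.05, against 5.2% of tested genes, and none had groups that did not overlap, against 10.6% of tested genes (5.35% higher in Dbx1 and 5.24% higher in non-Dbx1 neurons). The L2FC was above 0 for 4 members and below 0 for 4, where 50.8% of tested genes lay above 0, and the median L2FC was -0.0054 over the members and 0.0089 over all tested genes. Because each sample pools 15 neurons, fewer cells expressing a gene and less RNA per cell cannot be told apart.

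**Figure D1:**
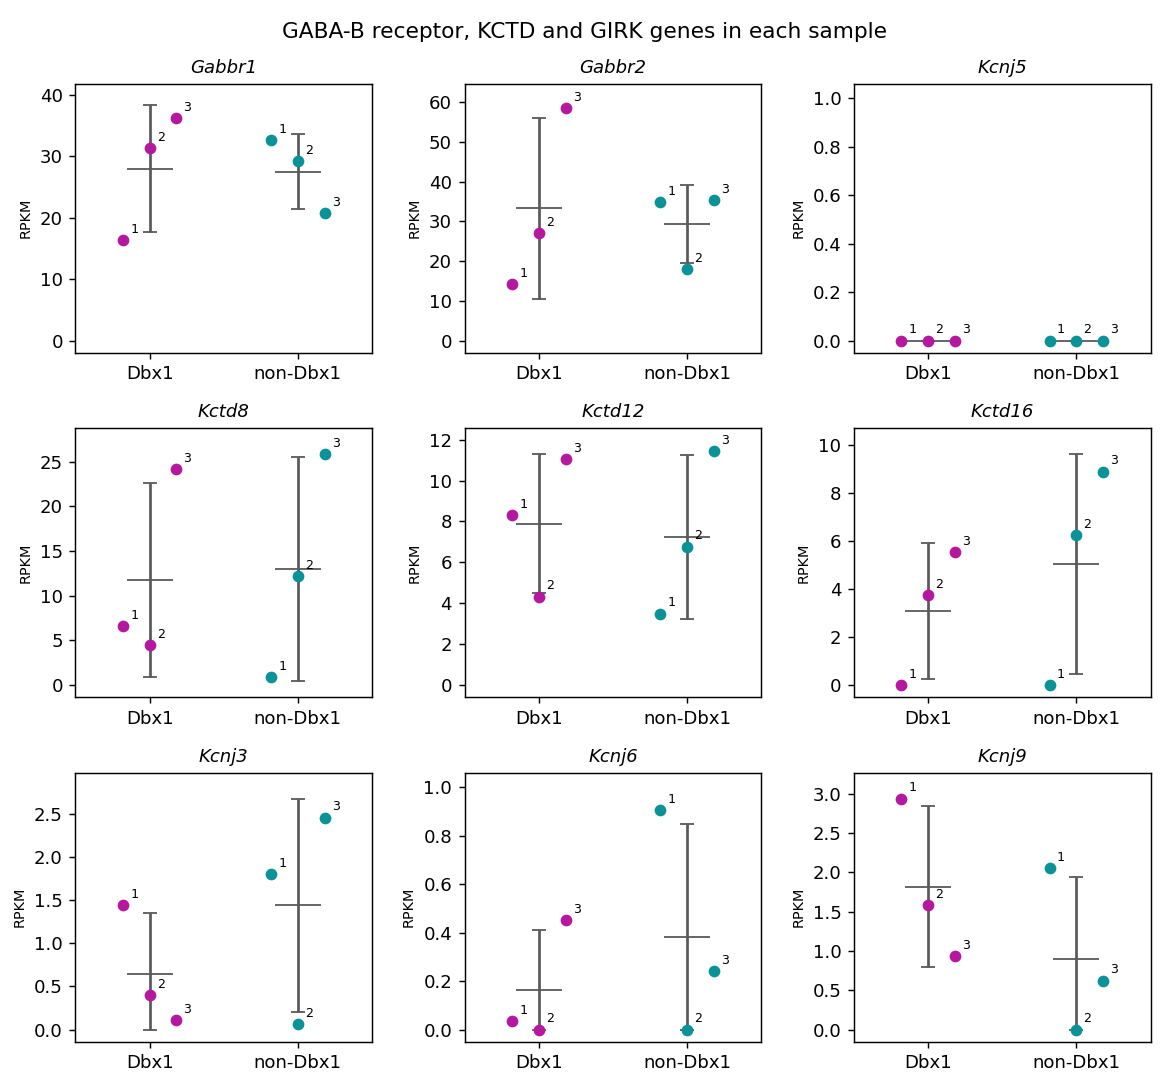
RPKM (linear axis, a scale for each gene) of the 9 genes in the 3 Dbx1 and the 3 non-Dbx1 samples. Points are samples, numbered by replicate, and bars are the mean ± SD of each group, with the lower end stopped at 0. The groups overlap for every gene above 0, and Kcnj5 lies at 0 in all 6 samples.

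Gabbr1 (chromosome 17, 37045966 to 37075067 on GRCm38, plus strand) encodes the subunit that binds GABA. It was present at 16.3, 31.4 and 36.3 RPKM in Dbx1 samples 1, 2 and 3 and at 32.6, 29.2 and 20.8 RPKM in non-Dbx1 samples 1, 2 and 3. The lowest and the highest value both came from Dbx1 samples, so the non-Dbx1 values lay within the Dbx1 range. The means were 28.0 ± 10.4 RPKM in Dbx1 and 27.5 ± 6.09 RPKM in non-Dbx1 neurons (SD, n = 3 each), with an L2FC of -0.03 (SE 0.349, limma FDR 0.996) and a 95% interval from -0.82 to 0.77. It was the steadiest of the receptor and KCTD genes, as its highest sample was 2.22-fold its lowest.

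Gabbr2 (chromosome 4, 46662305 to 46991873, minus strand) encodes the subunit that engages the G protein. Its level was 14.2, 27.0 and 58.6 RPKM in Dbx1 samples 1 to 3 and 34.8, 17.9 and 35.3 RPKM in non-Dbx1 samples 1 to 3. As for Gabbr1, Dbx1 sample 1 was lowest and Dbx1 sample 3 highest. The means were 33.3 ± 22.9 RPKM and 29.3 ± 9.91 RPKM (SD, n = 3 each), the L2FC was 0.01 (SE 0.4996, limma FDR 0.999), and the 95% interval ran from -1.13 to 1.16. The intervals of both subunits include 0, and they also include sizeable differences in either direction.

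The subunits of the receptor stood close to each other in level. Averaged over the 6 samples, Gabbr2 was at 31.3 RPKM and Gabbr1 at 27.8 RPKM, above 90.4% and 89.3% of tested genes, whose median was 3.32 RPKM. The ratio of Gabbr1 to Gabbr2 RPKM was 1.15, 1.16 and 0.619 in Dbx1 samples and 0.936, 1.63 and 0.589 in non-Dbx1 samples, so either subunit gene could be the higher one in both groups. The mean difference between them over 6 samples was 0.07 on the log2(RPKM + 1) scale (exact two-sided sign-change test, p = 0.844).

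The order of these 2 genes depended on the exon length by which reads were divided. The length behind the deposited RPKM of a gene was recovered as the smallest that turns its values into whole reads. For Kctd8, Kctd12, Kcnj3 and Kcnj9 it equalled the sum of all distinct exons in GENCODE vM21, in which bases shared by overlapping exons count more than once, and for Gabbr1, Gabbr2, Kctd16 and Kcnj6 it matched neither that sum nor the merged exons. For Gabbr1 the recovered length was 15389 bases, 1.98 times the 7764 bases that its merged exons cover, and for Gabbr2 it was 8451 bases, 1.26 times the merged 6686. With the merged lengths and these recovered ones, Gabbr1 averaged 55.0 RPKM and Gabbr2 39.6 RPKM, and the ratio of Gabbr1 to Gabbr2 became 1.80, 1.83 and 0.970 in Dbx1 samples and 1.47, 2.56 and 0.923 in non-Dbx1 samples. Under that length Gabbr1 was the higher gene in 4 of 6 samples. The length of a gene is the same in every sample, so it does not alter the ratio of its RPKM values between samples.

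**Figure D2:**
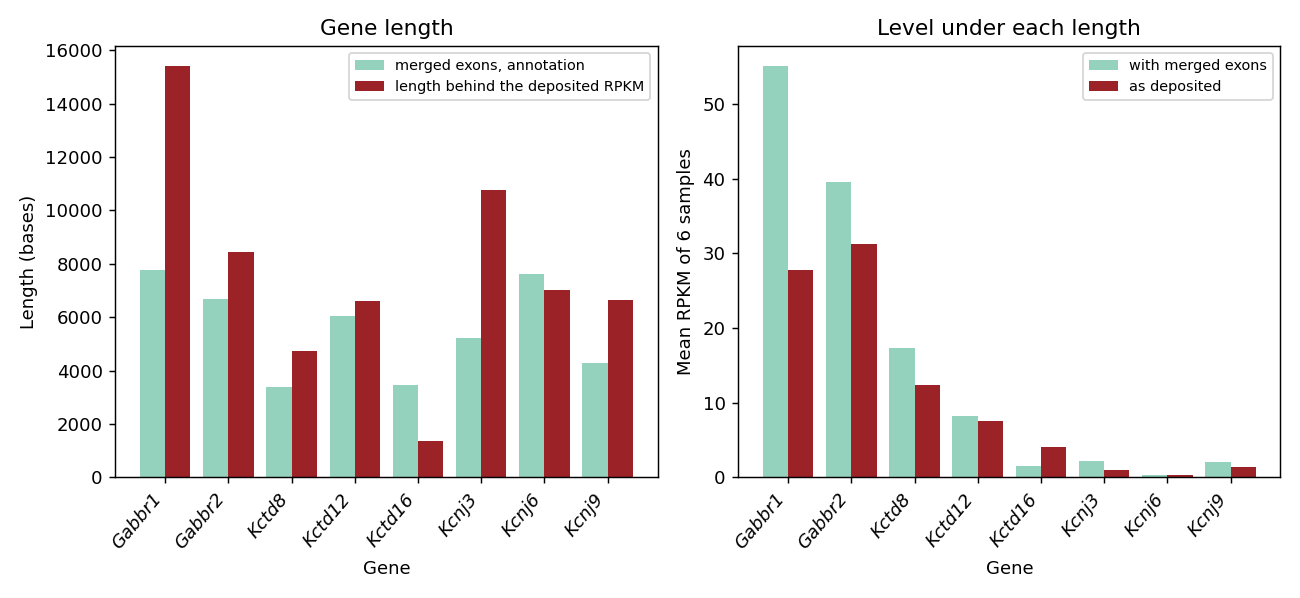
Left, length in bases behind the deposited RPKM and length of the merged exons of GENCODE vM21 for each detected gene. Right, mean RPKM of the 6 samples under each length, both as bars on linear axes. Gabbr1 moves from 27.8 to 55.0 RPKM and passes Gabbr2, while Kctd16 moves from 4.07 to 1.58 RPKM. For Kctd16 this holds at the smallest length that gives its values, and a multiple of that length would give a higher level.

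The KCTD genes had lower levels, and Kctd8 and Kctd16 varied widely between samples of a group. Kctd8 (chromosome 5, 69109285 to 69341679, minus strand), whose product binds the receptor and leaves its response largely sustained, was at 6.61, 4.47 and 24.2 RPKM in Dbx1 samples and at 0.885, 12.2 and 25.9 RPKM in non-Dbx1 samples. Sample 3 was the highest of its group in both cases, and non-Dbx1 sample 1 was the lowest of all, 29.2-fold under non-Dbx1 sample 3. The means were 11.8 ± 10.8 RPKM in Dbx1 and 13.0 ± 12.5 RPKM in non-Dbx1 neurons (SD, n = 3 each), with an L2FC of 0.22 (SE 0.971, limma FDR 0.990) and a 95% interval from -2.00 to 2.43. The L2FC was above 0 although the mean RPKM was lower in Dbx1 neurons, because the logarithm weighs the low value in non-Dbx1 sample 1 more heavily.

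Kctd12 (chromosome 14, 102976581 to 102982637, minus strand) encodes the KCTD protein best known for making the receptor response desensitize. It was measured at 8.29, 4.33 and 11.1 RPKM in Dbx1 samples and at 3.49, 6.77 and 11.4 RPKM in non-Dbx1 samples. The groups spanned almost the same range, and sample 3 was again the highest in each. The means were 7.90 ± 3.39 RPKM in Dbx1 and 7.24 ± 3.995 RPKM in non-Dbx1 neurons (SD, n = 3 each). The L2FC was 0.15 (SE 0.517, limma FDR 0.986), with a 95% interval from -1.03 to 1.33. Its exons share 3805 bases, 62.8% of their merged length, with the antisense lincRNA gene Gm26778. Reads were counted without regard to strand, so reads in the shared bases could not be told apart. If they were left out of the count, the levels of Kctd12 are too low, and so are its shares and rank given below. The 0 RPKM listed for Gm26778 in all 6 samples says nothing of that RNA.

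Kctd16 (chromosome 18, 40256962 to 40531630, plus strand), which encodes a receptor partner that links GABA-B receptors to other channels, was at 0, 3.74 and 5.54 RPKM in Dbx1 samples and at 0, 6.24 and 8.88 RPKM in non-Dbx1 samples. It was thus not detected at this depth in sample 1 of each group and present in the other 4 samples, on at least 38 to 113 reads. A count of 0 allows up to 3 reads, or 0.236 to 0.344 RPKM at the recovered length, depending on the sample, and such limits cover counting error only. The L2FC was -0.40 (SE 1.05, limma FDR 0.980), with a 95% interval from -2.79 to 1.99. The smallest length that gives its values was 1349 bases, 0.388 times the merged exons of GENCODE vM21, and the length that was used could be a multiple of it.

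Summed over the family, the KCTD genes reached 14.9, 12.5 and 40.8 RPKM in Dbx1 samples and 4.38, 25.2 and 46.2 RPKM in non-Dbx1 samples. Sample 3 of each group was the highest and the groups overlapped. All 3 KCTD genes were lowest, or joint lowest at 0, in non-Dbx1 sample 1 and highest in non-Dbx1 sample 3. Non-Dbx1 sample 1 is also the sample with the high globin and oligodendrocyte values given above. Non-Dbx1 sample 3 is the one with the high cholinergic and motor neuron sum. The part of either in the KCTD levels was not tested. Within-group SDs of log2(RPKM + 1) were 1.63 for Kctd8 and 1.63 for Kctd16, and only 2.08% and 2.04% of tested genes had a larger one, while Kctd12 had an SD of 0.672, exceeded by 37.0%. For comparison the SD was 0.475 for Gabbr1 and 0.795 for Gabbr2.

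Kctd12 or Kctd8 led the family in every sample. Kctd8 supplied 44.3%, 35.7% and 59.3% of the summed KCTD level in Dbx1 samples and 20.2%, 48.5% and 56.0% in non-Dbx1 samples. Kctd12 supplied 55.7%, 34.5% and 27.1% in Dbx1 samples and 79.8%, 26.8% and 24.8% in non-Dbx1 samples. Both ranges overlapped between the groups, and Kctd12 took its largest share in non-Dbx1 sample 1, where Kctd8 was low and Kctd16 was at 0.

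The GIRK genes were far below the receptor genes. Kcnj3 (chromosome 2, 55435970 to 55598145, plus strand) encodes GIRK1, a subunit that needs a partner to form a working channel. It was at 1.44, 0.396 and 0.107 RPKM in Dbx1 samples, on 123, 32 and 8 reads, and at 1.80, 0.0653 and 2.46 RPKM in non-Dbx1 samples, on 125, 6 and 249 reads. Non-Dbx1 samples held both the lowest and the highest value, 37.6-fold apart. The L2FC was -0.48 (SE 0.559, limma FDR 0.960), with a 95% interval from -1.76 to 0.79. It was -1.15 as the ratio of group means, and it ran from -0.999 without non-Dbx1 sample 2 to -0.15 without non-Dbx1 sample 3. Its exons share 1621 bases, 31.1% of their merged length, with the antisense lincRNA gene Gm26794. The same limit holds for its level, shares and rank.

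Kcnj9 (chromosome 1, 172320501 to 172329318, minus strand) encodes GIRK3, a subunit that joins other GIRK subunits and can direct channels away from the surface. Its level was 2.94, 1.58 and 0.932 RPKM in Dbx1 samples, on 155, 79 and 43 reads, and 2.05, 0 and 0.623 RPKM in non-Dbx1 samples, on 88, 0 and 39 reads. The lowest 2 samples were non-Dbx1, but non-Dbx1 sample 1 exceeded Dbx1 samples 2 and 3, so the groups overlapped. The means were 1.82 ± 1.02 RPKM and 0.892 ± 1.05 RPKM (SD, n = 3 each), with an L2FC of 0.66 (SE 0.571, limma FDR 0.951) and a 95% interval from -0.64 to 1.97. Without non-Dbx1 sample 2, the sample at 0, the L2FC was 0.28 (limma FDR 0.988). On recovered reads, limma-voom gave an L2FC of 3.02 (FDR 0.878) for the same gene, while the ratio of group means gave 1.03. The voom value includes the 0 reads of non-Dbx1 sample 2, whose part in it was not tested. Kcnj9 had the largest L2FC in size of the members, and it did not pass the test in any fit that was run.

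Kcnj6 (chromosome 16, 94748636 to 94997701, minus strand) encodes GIRK2, the subunit that can form channels by itself and that most neuronal GIRK channels contain. It was listed at 0.0358, 0 and 0.451 RPKM in Dbx1 samples and at 0.904, 0 and 0.242 RPKM in non-Dbx1 samples. These values rest on at least 2, 0 and 22 reads and on at least 41, 0 and 16 reads. Sample 2 of each group was at 0, where 3 reads would have given 0.0453 to 0.0661 RPKM across samples, and no sample reached 1 RPKM. The L2FC was -0.22 (SE 0.290, limma FDR 0.960), with a 95% interval from -0.88 to 0.44. The means were 0.162 ± 0.2505 RPKM and 0.382 ± 0.468 RPKM (SD, n = 3 each). The pseudocount of 1 shrinks the difference of so low a gene, and the L2FC was -0.73 with a pseudocount of 0.1, -1.02 with limma-voom on recovered reads and -1.24 as the ratio of group means.

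Kcnj5 (chromosome 9, 32314707 to 32344350, minus strand), which encodes GIRK4, the partner of GIRK1 in the heart, was at 0 RPKM in all 6 samples. With the 8984 bases of its summed distinct exons in GENCODE vM21, 3 reads would have given 0.0354 to 0.0517 RPKM, and with its 4685 merged bases 0.0679 to 0.0991 RPKM, so a higher level was not seen in any sample at this depth. It did not enter the fit, and no difference can be given.

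**Figure D3:**
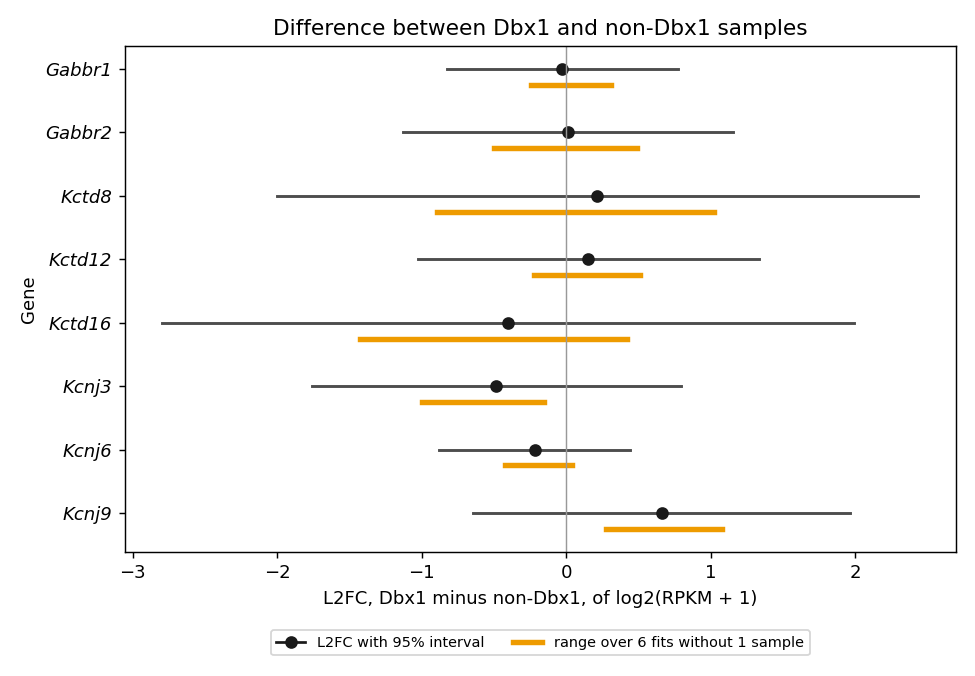
L2FC (Dbx1 minus non-Dbx1, of log2(RPKM + 1)) of the 8 tested genes, with the 95% interval from limma as a thin line and the range over the 6 fits that each leave out 1 sample as a thick line. All 8 intervals include 0, and the thick lines of Kcnj3 and Kcnj9 alone stay on 1 side of 0.

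The make-up of the GIRK family differed in description between the groups, although no single gene did. Kcnj9 made up 66.6%, 80.0% and 62.6% of the summed GIRK RPKM in Dbx1 samples and 43.1%, 0% and 18.8% in non-Dbx1 samples. Kcnj3 made up 32.6%, 20.01% and 7.19% in Dbx1 samples and 37.8%, 100% and 74.0% in non-Dbx1 samples. Every Dbx1 sample therefore had a higher Kcnj9 share and a lower Kcnj3 share than every non-Dbx1 sample. Kcnj6 shares, at 0.812%, 0% and 30.3% against 19.0%, 0% and 7.28%, overlapped.

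These shares were chosen for description after their values were seen and carry no test. They stand on few reads, since the family had 280, 111 and 73 reads in Dbx1 samples and 254, 6 and 304 reads in non-Dbx1 samples. All 6 reads of non-Dbx1 sample 2, the sample with the catecholaminergic and endothelial values given above, fell on Kcnj3. In the other non-Dbx1 samples the Kcnj9 share was 18.8% and 43.1%. Non-Dbx1 sample 2 had the lowest Kcnj9 share of all, so leaving it out could not make the groups overlap and is no check. With merged exon lengths the Kcnj9 share was 60.3%, 75.0% and 69.4% in Dbx1 samples and 41.2%, 0% and 15.4% in non-Dbx1 samples, and the groups stayed apart. The erythroid genes given above also set the groups apart, in 4 of 5 cases, and their part in the shares was not tested. Among single genes, 10.6% of those tested had groups that did not overlap.

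**Figure D4:**
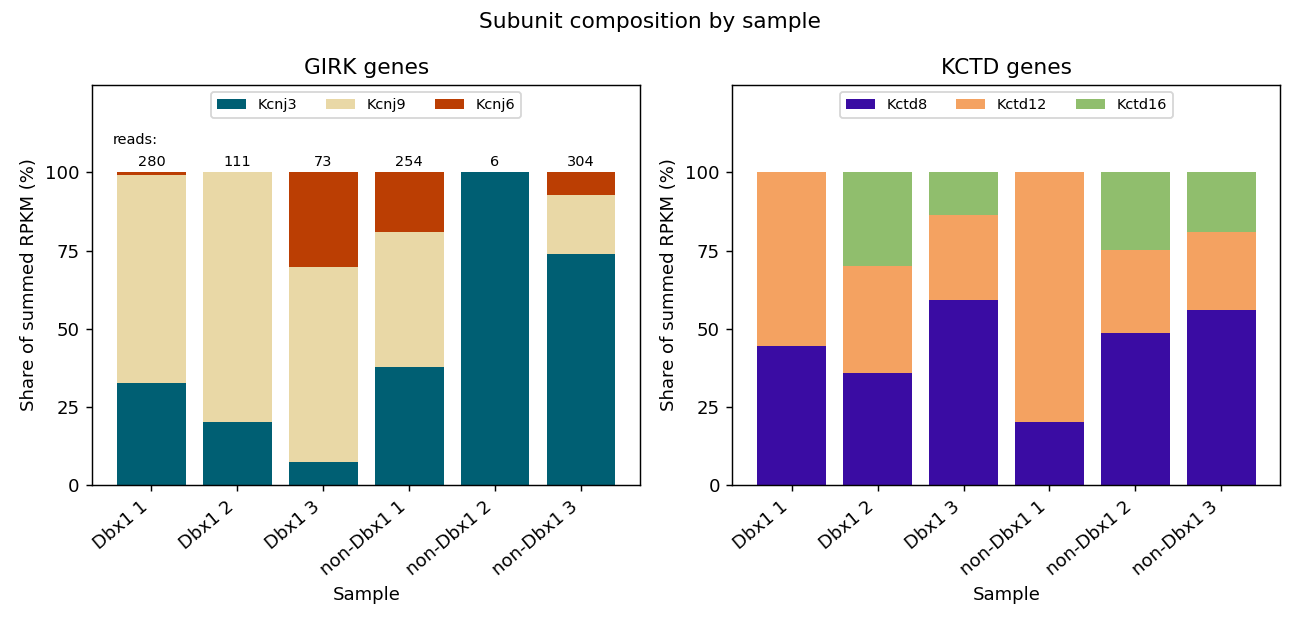
Shares in percent of the summed RPKM of the GIRK genes and of the KCTD genes in each of the 6 samples, as stacked bars up to 100%, with the summed GIRK reads printed above the bars on the left. Kcnj9 forms 62.6% to 80.0% of the GIRK sum in the Dbx1 samples and 0% to 43.1% in the non-Dbx1 samples, and the KCTD shares overlap between the groups.

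The receptor and its effector were unequal in level within every sample. Both receptor subunit genes exceeded every GIRK gene in 6 of 6 samples, and so did the highest KCTD gene. The lower receptor subunit was 4.83, 17.1 and 38.9 times the highest GIRK gene in Dbx1 samples, and 15.9, 274 and 8.45 times in non-Dbx1 samples. The highest GIRK gene was Kcnj9 in all 3 Dbx1 samples and in non-Dbx1 sample 1, and Kcnj3 in non-Dbx1 samples 2 and 3. By mean RPKM over 6 samples the order of the members was Gabbr2, Gabbr1, Kctd8 (12.4), Kctd12 (7.57), Kctd16 (4.07), Kcnj9 (1.35), Kcnj3 (1.04), Kcnj6 (0.272) and Kcnj5 (0).

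Neighbours in this order were compared within samples by exact two-sided sign-change tests over 6 differences, adjusted over 8 pairs, where the smallest possible unadjusted p is 0.0312. The order and so the pairs came from the same values that were tested, so these p values serve as description only. The step from Kctd12 to Kctd16 was in the same direction in 6 of 6 samples, at 1.15 on the log2(RPKM + 1) scale, with an exact p = 0.0312 (adjusted p = 0.25). The step from Gabbr1 to Kctd8 was 1.56, in 5 of 6 samples, with an exact p = 0.0625 (adjusted p = 0.25). With 6 samples and 8 pairs, a single pair that points the same way in every sample cannot go below an adjusted p of 0.25, so this test had little room to pass. Adjacent genes in the order were not shown to differ beyond their spread. With merged exon lengths Kctd16, at 1.58 RPKM, fell below Kcnj3 (2.15) and Kcnj9 (2.10), at the smallest length that gives its values.

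Against other receptors that signal through Gi/o, the GABA-B subunits were high. A list of 28 such receptor genes had a median of 2.04 RPKM over the 6 samples, and none of the 28 had a higher mean than Gabbr1 or Gabbr2. The highest of them was Grm3, a group II metabotropic glutamate receptor, at 15.2 RPKM, and with merged exon lengths it was the nociceptin receptor gene Oprl1 at 36.2 RPKM, below Gabbr2 at 39.6. For genes without a matched length, Gabbr2 among them, merged levels rest on the smallest length that fits, so this order is not firm. Single samples held exceptions. Grm3, at 27.6 RPKM, was above both subunits in Dbx1 sample 1. Adra2a, the alpha-2A adrenergic receptor, was above Gabbr2 in Dbx1 sample 1, at 14.7 RPKM, and in non-Dbx1 sample 2, at 19.1 RPKM, and the serotonin receptor gene Htr1a was above Gabbr1 in non-Dbx1 sample 3, at 21.8 RPKM.

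**Figure D5:**
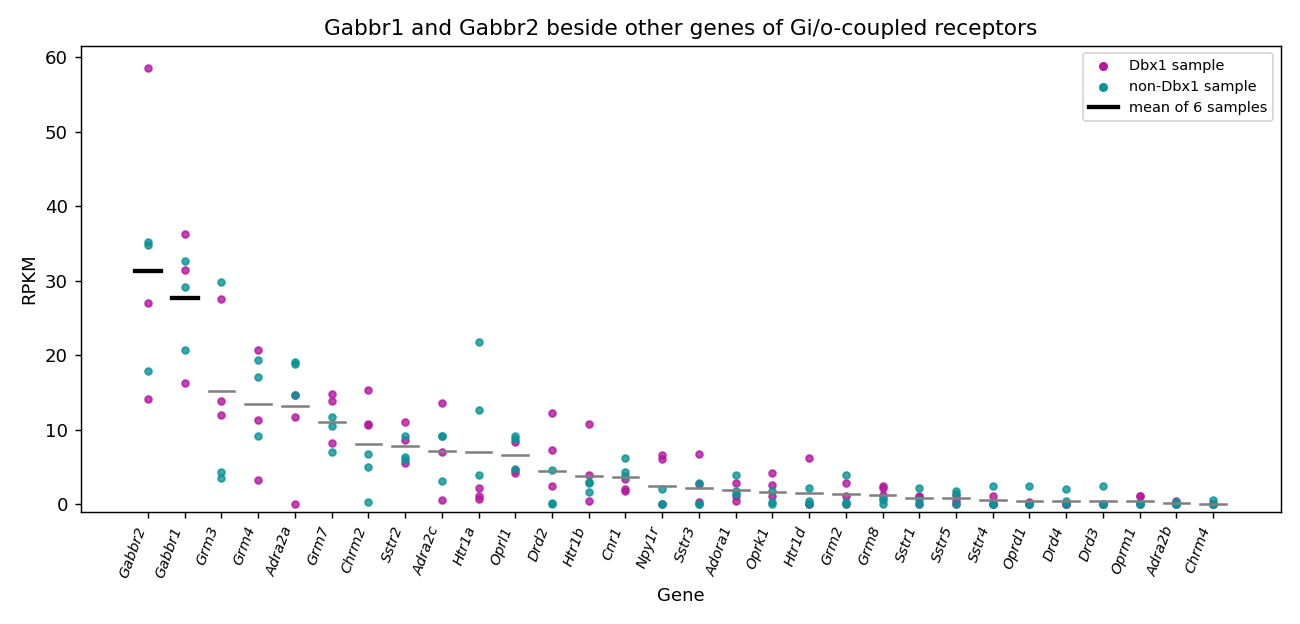
RPKM (linear axis) of Gabbr1, Gabbr2 and the 28 other Gi/o-coupled receptor genes, ordered by mean. Points are the 3 Dbx1 and 3 non-Dbx1 samples, and horizontal bars are means of the 6 samples. The means of the GABA-B subunits, 31.3 and 27.8 RPKM, lie above that of Grm3, the next gene, at 15.2 RPKM, while single samples overlap.

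The other genes of the pathway also gave no call in the main fit. Of 89 genes in 7 lists, 73 passed the filter and 0 had an FDR under 0.1, the lowest being 0.801. An unadjusted p under 0.05 was found for 4, and 8 of the 73 (11.0%) had groups that did not overlap, beside 10.6% of all tested genes. The median L2FC was -0.12 over these genes.

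Among the 10 Gi/o alpha and beta subunit genes, 0 of the 9 tested passed, and the most abundant were Gnai1 at 78.6 RPKM, Gnb1 at 61.5 RPKM and Gnai3 at 35.2 RPKM, averaged over 6 samples. Of the 10 gamma subunit genes, Gng3 was the most abundant, at 285, 302 and 228 RPKM in Dbx1 samples and 357, 322 and 333 RPKM in non-Dbx1 samples. Every non-Dbx1 sample was above every Dbx1 sample for Gng3, with an L2FC of -0.32 (limma FDR 0.936). Gnai1, Gnb1, Gnai3 and Gng3 each had a higher mean RPKM than any of the receptor, KCTD or GIRK genes.

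The RGS genes encode proteins that speed the shut-off of G proteins. The highest of the 17 by mean level were Rgs4, Rgs10 and Rgs2. Rgs17 alone had groups that did not overlap, at 18.7, 17.8 and 14.7 RPKM in Dbx1 samples and 10.1, 8.62 and 12.2 RPKM in non-Dbx1 samples, with an L2FC of 0.68 (limma FDR 0.912). Among 7 genes of receptor or channel binding partners, App, whose product binds GABA-B receptor complexes, was at 346, 375 and 418 RPKM in Dbx1 samples and 323, 240 and 297 RPKM in non-Dbx1 samples. Its L2FC was 0.41 (limma FDR 0.924). Ajap1, which encodes another protein that binds the receptor, was at 5.65, 7.97 and 8.51 RPKM in Dbx1 samples and at 10.6, 13.2 and 9.10 RPKM in non-Dbx1 samples, with an L2FC of -0.52 (limma FDR 0.936). Praf2, a gatekeeper of Gabbr1 export, and Snx27, a sorting protein for GIRK channels, were the other abundant genes of this list, and their groups overlapped.

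Genes for the supply of the transmitter were present in both groups. Gad2, which makes GABA, was at 50.9, 23.3 and 55.6 RPKM in Dbx1 samples and 50.9, 57.6 and 60.0 RPKM in non-Dbx1 samples, with an L2FC of -0.46 (limma FDR 0.941). Abat, which breaks GABA down, and Slc6a11, a GABA transporter, were the next in mean level. None of the 6 genes of this list had groups that did not overlap.

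Of the 28 other Gi/o receptor genes, 22 were tested and 4 had groups that did not overlap, beside 10.6% of all tested genes. Chrm2, the M2 muscarinic receptor, was at 10.7, 15.3 and 10.7 RPKM in Dbx1 samples and 0.298, 6.76 and 5.07 RPKM in non-Dbx1 samples (L2FC 1.73, limma FDR 0.912), and Grm8 was also higher in the Dbx1 samples (L2FC 1.02, limma FDR 0.912). Htr1a was at 2.21, 0.778 and 1.13 RPKM in Dbx1 samples and 12.6, 3.92 and 21.8 RPKM in non-Dbx1 samples (L2FC -2.32, limma FDR 0.801), and the cannabinoid receptor gene Cnr1 was also higher in non-Dbx1 samples (L2FC -0.77, limma FDR 0.936). The authors' own test, run on read counts of the same samples, did call Htr1a higher in non-Dbx1 neurons at an FDR under 0.1. Grm3, Grm4 and Adra2a had the highest means of the list, with overlapping groups.

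By mean deposited RPKM over the 6 samples, the GIRK genes were not the highest inward rectifiers. Among 11 other Kcnj genes, 3 had a higher mean than Kcnj9 and Kcnj3, and 5 a higher mean than Kcnj6. Kcnj10, the main inward rectifier of astrocytes, was at 2.95 RPKM over the 6 samples, followed by Kcnj11, the pore of ATP-sensitive potassium channels, and by Kcnj16, a partner of Kcnj10. These means hide uneven samples, and the ranking carries no test. It also rests on the deposited lengths. With merged exon lengths Kcnj3 averaged 2.15 RPKM and Kcnj9 2.10 RPKM. The other Kcnj genes were not ranked under those lengths, so the order could differ. Kcnj10 ran from 0.0233 RPKM in Dbx1 sample 1 to 7.90 RPKM in non-Dbx1 sample 1. In Dbx1 sample 1, Kcnj9 (2.94 RPKM) was above Kcnj10 and Kcnj11 (1.80 RPKM) and below Kcnj16 (4.17 RPKM). All 4 tested genes of this list had overlapping groups.

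Patterns across the 6 samples were compared with those of 13163 tested genes with a mean of at least 1 RPKM, by the root mean square difference of centred log2(RPKM + 1) values. Abl2 (0.168) and Mir124-2hg (0.174) came nearest to Gabbr2. Klhl42 (0.179) and Rassf5 (0.201) came nearest to Kcnj9. With 6 samples and this many genes, close neighbours are found for most patterns, and the distances are given as a description.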

How the data were processed

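Each sample held 15 preBötC neurons, and the 6 samples came from 6 mice. Per the submitters' processing notes, TopHat2, SAMtools and HTSeq were used to align and count reads on mm10 (versions not given in the sources used here). The authors deposited RPKM values per gene name, with no scaling between samples and no counts. Groups came from the sample labels.

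The deposited RPKM values were tested as log2(RPKM + 1), a pseudocount of 1, with limma 3.58.1 (lmFit, then eBayes with trend) in R 4.3.3, two-sided, over genes above 0 in at least 3 samples. This test was checked on simulated data. Within-sample orders used exact sign-change tests in Python 3.11.15 (numpy 2.4.6, pandas 2.3.3, scipy 1.17.1), and plots used matplotlib 3.10.9. For 3 samples against 3, the smallest two-sided exact permutation p is 0.10, and it was used only as a check beside limma.

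The steps in the RPKM values gave the reads per sample and per gene, with exon lengths of GENCODE vM21 on GRCm38. For Gabbr1, Gabbr2, Kctd16 and Kcnj6 the length could not be matched to that annotation, so their reads are the fewest that give the deposited values. Reads from amplified cDNA are not independent molecules.

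The members and lists were chosen with earlier results of these data known. All members are named. Of each pathway list the 3 genes with the highest mean RPKM are named, with any gene whose groups do not overlap or whose FDR is under 0.1, and for the highest receptor and GIRK genes the 2 nearest in pattern. Alternatives were a pseudocount of 0.1, other filters, size factors, quantile normalization, limma without trend, the replicate block, voom on recovered reads with at least 10 reads, the ratio of group means, merged exon lengths, each group alone and each sample left out.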

Additional observations from a re-analysis of the deposited data

How the results depend on the processing

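No member passed the FDR threshold of 0.1 under any alternative, with a lowest FDR of 0.796 for Kcnj9. The direction of Kcnj3 and Kcnj9 held in all 15 alternatives each. Over fits without 1 sample, the L2FC ranged from -0.24 to 0.31 for Gabbr1, -0.50 to 0.49 for Gabbr2, -0.89 to 1.03 for Kctd8, -0.22 to 0.51 for Kctd12, -1.43 to 0.42 for Kctd16 and -0.42 to 0.040 for Kcnj6, so these signs depend on single samples. The sign also turned for Gabbr1 with quantile normalization (0.020) and the ratio of means (0.025), and for Gabbr2 with voom (-0.0067). The cause of these turns was not tested. For Kctd8 it turned with the ratio of means (-0.14), where the low value in non-Dbx1 sample 1 weighs less, as given above. The order of Gabbr2 above Gabbr1 (-0.56) and Kctd16 above Kcnj9 (-0.28) turned with merged exon lengths. Both turns rest on the smallest lengths that give the deposited values. For Kctd16 that length, 1349 bases, is below its merged 3477, and a multiple of it would raise the merged level, so its turn is not firm. Kcnj9 above Kcnj3 turned in the non-Dbx1 samples alone (-0.35).

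Over all genes, 0 were called higher in Dbx1 neurons and 1 higher in non-Dbx1 neurons. The second count was 0 with a pseudocount of 0.1, with genes above 0 in at least 1 sample and with voom, and 3 without the trend. Without 1 sample each, both counts ranged from 0 to 1, and the first was 1 without non-Dbx1 sample 2. With the replicate block 0 and 0 genes were called and 819 had p under 0.05, against 916 without it. Same-numbered samples came from different mice. Their deviations from the group means over all tested genes correlated at -0.107, 0.0248 and -0.0522. Samples with different numbers correlated at -0.0824 to 0.133, so no pairing by number was seen over all genes. Whether a shared number marks a shared litter or batch is not given in the sources used here.

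For the GIRK genes the range over all alternatives was -1.15 to -0.15 for Kcnj3, -1.24 to 0.040 for Kcnj6 and 0.28 to 3.02 for Kcnj9. Levels under the limits of 3 reads could not be seen at this depth.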
